A study of Mus musculus with 2 samples.

Results

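The genes described here encode the subunits of the 5 oxidative phosphorylation complexes that are made from nuclear genes. Members were chosen by symbol alone, with no measured value: protein-coding genes of the Nduf, Sdh, Uqcr, Cyc1, Cox and Atp5 subunit families, without pseudogenes, assembly factors and inhibitors. Of the 15605 genes listed in either deposited file, 80 were members, and all 80 were listed in both files. The rule found 81 genes in RefSeq, and the remaining one, Cox7b2, was not in the lists analysed here. By complex there were 35 members in complex I, 4 in complex II, 9 in complex III, 15 in complex IV and 17 in complex V, spread over 19 chromosomes. Ndufa4 was counted with complex IV, of which it is a subunit despite its name.

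Oxidative phosphorylation takes place in the inner mitochondrial membrane. Complexes I and II pass electrons from NADH and succinate to ubiquinone, complex III passes them to cytochrome c, and complex IV, cytochrome c oxidase, passes them to oxygen. Complexes I, III and IV pump protons, and complex V, the ATP synthase, uses the returning protons to make ATP. In macrophages the balance between this pathway and glycolysis is known to shift with activation. Complexes I, III, IV and V also hold subunits encoded by mitochondrial DNA; 13 such genes were looked for, 0 were listed, and they are not analysed here.

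The libraries came from peritoneal macrophages, the phagocytes of the abdominal cavity, of C57BL/6 mice labelled as 6 to 8 weeks old. One group was wild type and the other lgmn-/-, a knockout of the gene for legumain, a lysosomal cysteine protease. In both groups the cells had spent 4 days beside EO771, a carcinoma line of the mouse mammary gland, so no library shows macrophages without them. There was 1 library per group, with no replicate, so no test between genotypes was possible and every ratio describes these 2 libraries. The sources used here do not give the deleted exons, the way the cultures were separated or the number of mice.

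The wild type library held 11885784 estimated counts and the knockout library 11740202. Lgmn had 23550 counts in wild type and 426 in knockout, 64.4-fold lower with a 95% counting interval of 58.6 to 71.1. All 8 macrophage markers, such as Csf1r and Adgre1, were measured, with 268378 summed counts in wild type and 245628 in knockout; 4 had a ratio below 1, and Mertk was the 1 past 2-fold, with 253 and 694 counts. Markers of other cells also differed. All 7 fibroblast and smooth muscle markers were more than 2-fold lower in knockout, with summed counts of 2334 and 519, and those furthest apart were Tagln, Acta2 and Col1a2. Of 9 T and NK cell markers, 8 were listed and 5 had enough counts; 3 of these, Klrd1, Klrb1c and Cd3d, were at least 2-fold higher in knockout, and the list's summed counts were 239 and 571. The B cell markers summed to 23 and 41 counts, the carcinoma markers (Epcam, Krt8, Krt18 and Cdh1) to 19 and 29, and the neutrophil markers to 367 and 469. Their part in the ratios given here was not tested.

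Promoter sequences are shown for 4 members because the members' ratios lay close together, and the start regions show how unlike each other these genes are in the letters of regulators known for respiratory chain genes. Each is the 150 bases before a RefSeq start, 5′ to 3′ on the gene's strand, in GRCm38.p6. For a gene with more than 1 window, as 5 members had, the window with most of the letters marked below was printed. Atp5g2 (chr15:102671048-102671197, minus strand) and Ndufa12 (chr10:94198885-94199034, plus strand) had the lowest ratios of complexes V and I. Atp5j (chr16:84834977-84835126, minus strand) was the only member whose searched windows held the letters of NRF1, ETS and YY1 together. Its printed window lies inside the gene, whose 5′ end is at 84835857, and within the overlap with the gene Gabpa. Ndufb7 (chr8:83566608-83566757, plus strand) had the highest ratio of complex I in the length-adjusted values described later. Capitals mark CGCATGCG (NRF1), CCGGAAG (ETS, the family of GABP) and AAGATGGC (YY1), searched on both strands.
Atp5g2: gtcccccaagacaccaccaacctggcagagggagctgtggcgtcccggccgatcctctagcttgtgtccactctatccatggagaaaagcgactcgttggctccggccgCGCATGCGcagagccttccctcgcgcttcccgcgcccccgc
Atp5j: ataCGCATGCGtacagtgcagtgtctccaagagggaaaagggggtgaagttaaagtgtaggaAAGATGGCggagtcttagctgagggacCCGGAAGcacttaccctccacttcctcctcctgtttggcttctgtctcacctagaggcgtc
Ndufb7: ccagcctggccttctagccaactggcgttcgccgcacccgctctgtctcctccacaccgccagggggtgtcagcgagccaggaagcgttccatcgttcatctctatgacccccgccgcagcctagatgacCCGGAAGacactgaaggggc
Ndufa12: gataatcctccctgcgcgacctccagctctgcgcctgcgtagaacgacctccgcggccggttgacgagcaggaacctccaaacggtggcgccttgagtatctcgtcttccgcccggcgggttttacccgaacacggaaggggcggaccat

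The NRF1 letters lay 41 bases before the start of Atp5g2 and 147 before the start used for Atp5j. The YY1 and ETS letters of Atp5j began 88 and 61 bases before that start. Ndufb7 held the ETS letters 20 bases before its start, and Ndufa12 held none of the 3. Start windows of 300 bases were available for 65 of the 80 members. A gene counted as a match if any of its windows held the letters. NRF1 letters were in 9 of these 65 members, 13.8%, beside 4.86% of 7568 genes tested that had a window, and YY1 letters in 10, 15.4%, beside 6.00%. ETS letters were in 17 members, 26.2% beside 22.9%. The letters TNAAGGTCA, bound by ERR receptors, were in 3 members, 4.62% beside 0.885%. The Sp1 letters GGGCGGG went the other way, in 33.8% of members and 53.3% of genes tested, and CCAAT was in 44.6% and 42.5%. A match describes letters and not a bound site. The median log2 ratio was −0.35 in the tested members with NRF1 letters and −0.39 in those without, and −0.39 with and −0.38 without ETS letters. With and without YY1 letters it was −0.42 and −0.37, with Sp1 letters −0.45 and −0.37, and with CCAAT −0.39 and −0.35. The 3 members with ERR letters had −0.53, beside −0.38, and the 6 with the TATA letters TATAAA −0.52, beside −0.37. These TATA letters were in 9.23% of members and 8.34% of genes tested. With the length trend described later subtracted, the medians with and without the letters were 0.03 and −0.04 for NRF1. They were 0.01 and −0.05 for ETS, −0.03 and −0.03 for YY1, and −0.06 and 0.02 for Sp1. For CCAAT they were −0.03 and −0.02, for ERR −0.08 and −0.01, and for TATA −0.05 and −0.03.

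The members were abundant in both libraries. FPKM, fragments scaled to transcript length and to library size, allows levels of genes to be compared. On that scale 61 members in wild type and 59 in knockout stood at 100 or more, and the median member lay at percentile 97.0 of listed genes in wild type and 96.9 in knockout. Together they took 3.10% of all listed FPKM in wild type and 2.90% in knockout. In counts this was 175498 in wild type, 1.48% (95% Clopper-Pearson interval 1.47 to 1.48), and 155001 in knockout, 1.32% (1.31 to 1.33). Fewer cells of a type and less RNA per cell cannot be told apart in such bulk RNA.

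**Figure D1:**
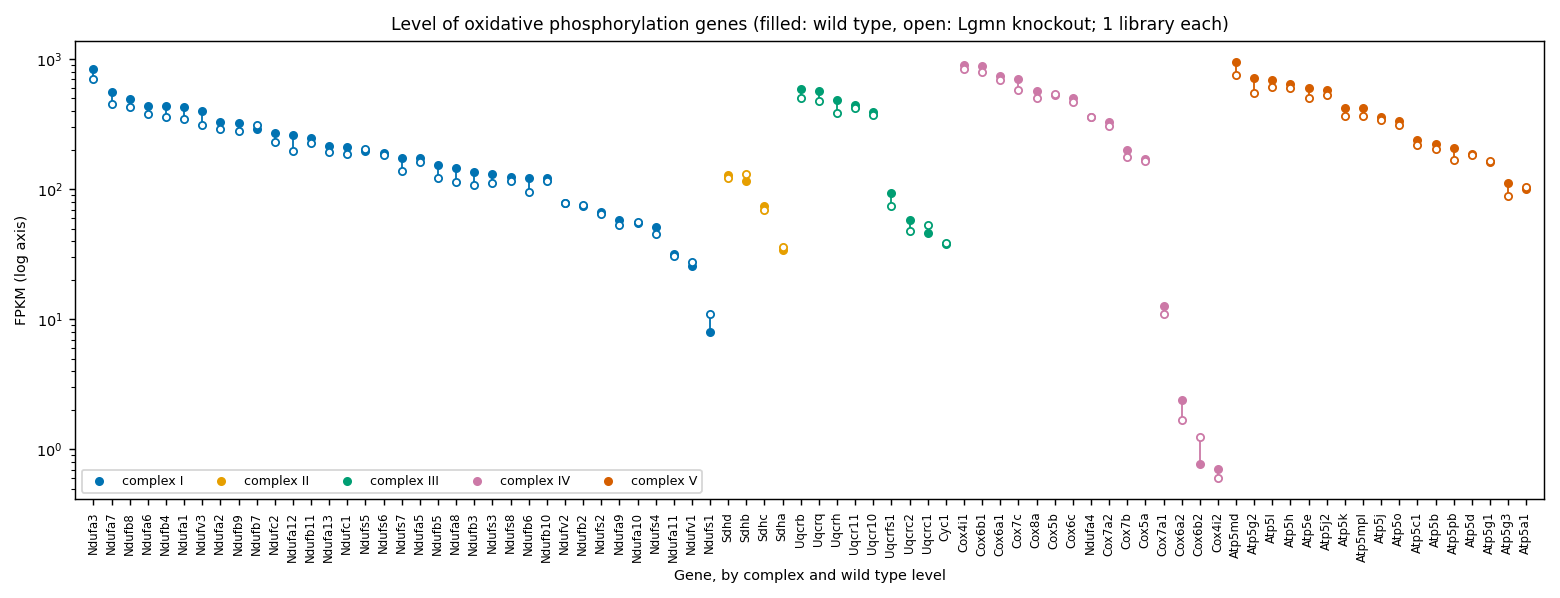
FPKM (vertical log axis) of all 80 members (horizontal axis, by complex and wild type level) in the wild type library (filled points) and the knockout library (open points), joined by a line. Levels differ far more between members than between libraries, from Cox4i2 at 0.71 and 0.60 up to Atp5md at 961 in wild type and Cox4i1 at 835 in knockout.

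With counts scaled between libraries by TMM factors, 77 members had at least 50 counts in the higher library. Among these, 76 had a log2 ratio of knockout over wild type below 0, where 50.1% of all 9498 genes tested did. The differences were small: the median was −0.38, beside 0.00 over all genes tested, and the members ranged from −0.65 to 0.22. Past 2-fold lower there were 0 members (1.74% of all genes), and past 2-fold higher 0 (6.05%). At 1.5-fold lower there were 5 members, Ndufa12, Ndufa8, Ndufb6, Uqcrfs1 and Atp5g2 (background 6.39%), and at a log2 ratio of −0.322 or below 52 (22.1%). Summed over members, scaled counts were 1.32-fold lower in knockout (counting interval 1.31 to 1.33), beside 1.18-fold for the sum over all genes tested. The members were also closer to each other than genes in general, with an SD of 0.16 beside 0.60 on the log2 scale. The genes tested were less abundant, with a median wild type FPKM of 6.8 beside 222 for the members. The cytosolic and mitochondrial ribosomal protein genes, described later, had SDs of 0.10 and 0.20, so such closeness was not particular to the members. Counting intervals of 42 members held the ratio of the sum, 20 lay below it and 15 above it.

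**Figure D2:**
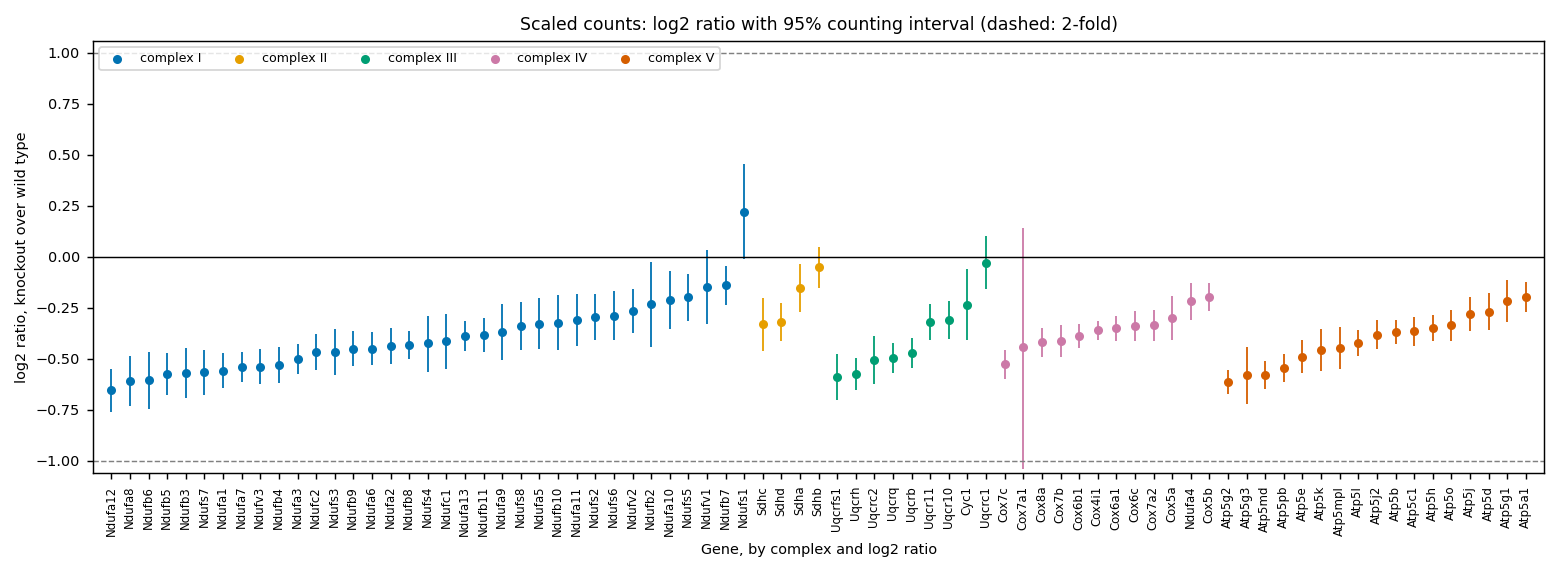
Log2 ratio of knockout over wild type (vertical axis) for each member with at least 50 counts (horizontal axis, sorted within its complex); vertical lines are 95% intervals for counting error only and dashed lines mark 2-fold. Points lie from −0.65 (Ndufa12) to 0.22 (Ndufs1), with 76 of 77 below 0.

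The members are short transcripts, with a median length of 657 bases beside 2744 over genes tested, and the log2 ratio rose with length across all genes tested (Spearman's rho 0.61 over 9498 genes, which share both libraries). The trend over all genes, read at the members' lengths, had a median of −0.38. With this trend subtracted, the members' median log2 ratio was −0.04, with a range of −0.34 to 0.28, beside a median of −0.01 over all genes tested. Below 0 were 45 of 77, beside 51.2% of genes tested. Members of up to 600 bases, 33 in number, had a median of −0.42 before and 0.03 after the subtraction. The 17 members above 1200 bases had −0.31 before and −0.12 after. Scaling mattered as well: with library totals in place of TMM the median was −0.14 and 63 members were below 0 (29.3% of genes tested), and with deposited FPKM it was −0.14 and 63 (29.1%). On those scales the median of all genes tested lay at 0.24 and 0.23. The 13 members whose direction turned on both of those scales, and which are called lower here as scaled with TMM, were Ndufa10, Ndufb2, Ndufb7, Ndufs5, Ndufv1, Sdha, Sdhb, Uqcrc1, Cyc1, Cox5b, Ndufa4, Atp5a1 and Atp5g1.

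**Figure D3:**
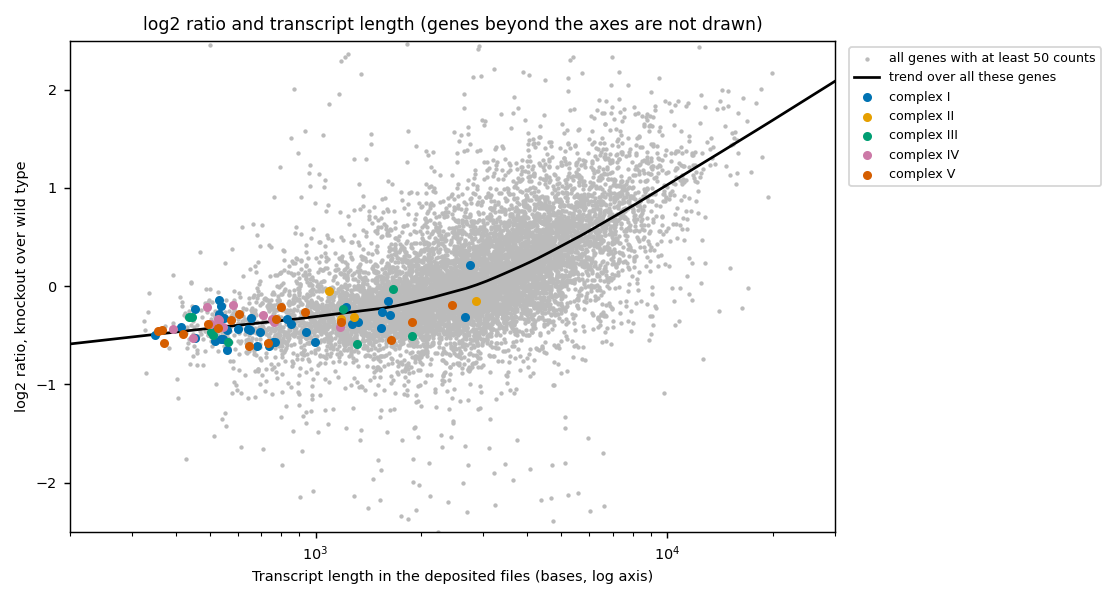
Log2 ratio of knockout over wild type (vertical axis) by transcript length in bases (horizontal log axis) for genes with at least 50 counts, with members coloured by complex and the lowess trend over all these genes as a line. The members sit at the short end, at 349 to 2859 bases, around the trend.

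Complex I, NADH dehydrogenase, has a matrix arm that takes electrons and a membrane arm that pumps protons. Its 35 members had a median log2 ratio of −0.42 (length-adjusted −0.07), and their summed scaled counts were 1.35-fold lower (1.33 to 1.36). In wild type their median FPKM was 174 and in knockout 163. The 7 core subunits of the matrix arm, which carry the flavin and the iron-sulfur clusters, had a median of −0.29; the 9 accessory subunits of that arm had −0.44 and the 19 of the membrane arm −0.43. With the length trend subtracted the medians were −0.04, −0.11 and −0.07.

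Ndufs1, the largest core subunit, had 268 counts in wild type and 364 in knockout, FPKM 8.07 and 11.1. It was the only member with a log2 ratio above 0, at 0.22 or 1.17-fold higher (0.992 to 1.37), an interval that holds equality. Its level per length was the lowest among the tested members in wild type; in knockout Cox7a1, at an FPKM of 10.9, was just below it. Ndufv1, which binds NADH, had 496 and 522 counts and a log2 ratio of −0.15, with a ratio of 0.903 (0.797 to 1.02). Ndufs7, the core subunit that hands electrons to ubiquinone, had 1538 and 1212 counts, 1.48-fold lower (1.37 to 1.60), so the core subunits did not share a single ratio.

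Among accessory subunits Ndufa12, which sits on the matrix arm, had 1684 counts in wild type and 1248 in knockout, FPKM 263 and 197. Its ratio was the lowest of all tested members, 1.57-fold lower (1.46 to 1.69), and −0.24 on the length-adjusted log2 scale. Ndufa3 and Ndufa7 were the most abundant per length, with FPKM of 846 and 562 in wild type and 708 and 456 in knockout. Ndufa3 was 1.41-fold lower (1.34 to 1.49), yet its length-adjusted log2 ratio was −0.01, since it is also the shortest member, at 349 bases. Ndufb7 of the membrane arm had 1757 and 1859 counts, 1.10-fold lower after scaling (1.03 to 1.18) and 0.28 above the length trend on the log2 scale, the highest of the tested members.

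Complex II, succinate dehydrogenase, also works in the tricarboxylic acid cycle, and all its subunits are nuclear-encoded. It stood nearest to equality: the summed scaled counts of its 4 members were 1.16-fold lower (1.12 to 1.20), but the direction turned with library totals and with FPKM, at a log2 ratio of 0.03 on both. The unscaled sums were 5669 counts in wild type and 5710 in knockout. Its share of the members' FPKM was 1.48% in wild type and 1.71% in knockout. Sdhb, the iron-sulfur subunit, had 1496 counts in wild type and 1683 in knockout, and Sdha, the flavoprotein that oxidises succinate, 1173 and 1230. After scaling their log2 ratios were −0.05 and −0.15. The membrane anchors were lower in knockout, Sdhc with 1034 and 958 counts and Sdhd with 1966 and 1839, with knockout over wild type ratios of 0.795 (0.727 to 0.869) and 0.802 (0.753 to 0.856). With the length trend subtracted the median of the 4 was −0.05, close to that of complex I.

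Complex III passes electrons through the Rieske iron-sulfur protein and cytochrome c1. Its 9 members had the lowest median of the 5 complexes, −0.47, and a length-adjusted median of −0.04. Uqcrfs1, the Rieske protein, had 1476 counts in wild type and 1145 in knockout, a ratio of 0.665 (0.616 to 0.719). Uqcrc1 and Uqcrc2 are the paired core proteins of this complex; they stood apart, Uqcrc1 with 921 and 1053 counts and Uqcrc2 with 1304 and 1072. Uqcrc1 had a log2 ratio of −0.03, 1.02-fold lower (0.932 to 1.11), and Uqcrc2 one of −0.50. After the subtraction of the length trend they were at 0.18 and −0.34. Uqcrb and Uqcrq, small subunits, were the most abundant per length, with FPKM of 592 and 566 in wild type and 505 and 474 in knockout. They were 1.39-fold (1.32 to 1.46) and 1.41-fold lower (1.34 to 1.49), and Cyc1, cytochrome c1, with 541 and 536 counts, was 1.18-fold lower.

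Complex IV had 12 tested members, with a median log2 ratio of −0.35 (length-adjusted 0.03) and summed scaled counts 1.28-fold lower (1.26 to 1.30). These 12 had a median FPKM of 515 in wild type and 486 in knockout, and the 3 others were nearly without counts. Cox4i1, whose product is needed for assembly, had 8030 counts in wild type and 7292 in knockout and an FPKM of 907 and 835. It was 1.28-fold lower (1.24 to 1.33). Cox6b1, on the side that meets cytochrome c, had 5064 and 4507 counts, 1.31-fold lower (1.26 to 1.36). Cox7c was the lowest of the complex, with 3564 and 2885 counts, 1.44-fold lower (1.37 to 1.51), and Cox5b, which binds zinc, the highest, with 3533 and 3593 counts, 1.15-fold lower (1.09 to 1.20).

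Several subunits of complex IV have a form typical of heart, muscle, lung or testis, and in both libraries nearly all counts came from the widely expressed form. Cox4i1 held 99.9% of the Cox4i counts in wild type and in knockout, where Cox4i2, the lung form, had 6 and 5 counts. Cox6a1 held 99.6% and 99.7%, with 19 and 13 counts of the muscle form Cox6a2. Cox6b1 held 99.9% and 99.8%, with 5 and 8 counts of the testis form Cox6b2. These 3 minor forms were the members below 50 counts, and no ratio is given for them. Cox7a2 held 98.1% and 98.3%, and the muscle form Cox7a1, with 55 and 47 counts, was 1.88% of the pair in wild type (1.42 to 2.44) and 1.74% in knockout (1.28 to 2.31), intervals that overlap. Cox7b, with 2779 and 2436 counts, had no measured partner.

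Ndufa4 had 1989 and 1995 counts and an FPKM of 357 and 363, 1.16-fold lower after scaling (1.09 to 1.24). Its relative Ndufa4l2, which is known to be induced by hypoxia and does not meet the symbol rule, had 72 counts in wild type and 19 in knockout. It was 4.42-fold lower (2.64 to 7.76), further than any tested member, and made up 3.49% of the pair's counts in wild type (2.74 to 4.38) and 0.943% in knockout (0.569 to 1.47). The fibroblast and smooth muscle markers were lower in the same library, with summed counts of 2334 and 519, and their part in this value was not tested.

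Complex V joins a catalytic F1 head to a proton-driven ring. Its 17 members had a median log2 ratio of −0.38 (length-adjusted 0.00), and their summed scaled counts were 1.33-fold lower (1.31 to 1.35). The 5 F1 subunits had a median of −0.36. Atp5b, the catalytic beta subunit, had 5013 and 4530 counts, 1.29-fold lower, and Atp5a1, the alpha subunit, had 2970 and 3021, 1.15-fold lower (1.09 to 1.21), the highest ratio of this complex. Atp5md, a small subunit that helps ATP synthase dimers form, had the highest FPKM in wild type of all members, 961, and 761 in knockout. It was 1.49-fold lower (1.42 to 1.57), and Atp5l, with 4167 and 3622 counts, 1.34-fold lower.

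The ring of ATP synthase is built from subunit c, which 3 genes encode as precursors with the same mature protein and different import sequences. Atp5g2 had 5342 counts in wild type and 4071 in knockout, FPKM 716 and 553, and was 1.53-fold lower (1.47 to 1.59). Atp5g3 had 958 and 747 counts and was 1.49-fold lower (1.36 to 1.65). Atp5g1 had 1513 and 1520 counts and a ratio of knockout over wild type of 0.862 (0.802 to 0.926), so it stood apart from the other forms beyond counting error. Its share of the counts of the 3 genes was 19.4% in wild type (18.5 to 20.3) and 24.0% in knockout (22.9 to 25.1). The share of Atp5g2 was 68.4% (67.3 to 69.4) and 64.2% (63.0 to 65.4), and that of Atp5g3 12.3% (11.5 to 13.0) and 11.8% (11.0 to 12.6). With the length trend subtracted, Atp5g1 lay at 0.14, Atp5g2 at −0.23 and Atp5g3 at −0.21, so the order held.

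**Figure D4:**
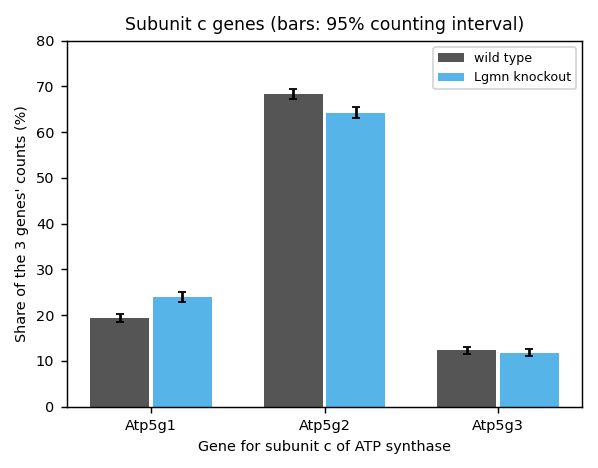
Share of the counts of the 3 subunit c genes in each library (vertical axis, percent), with 95% Clopper-Pearson intervals for counting error only. Atp5g1 has 19.4% in wild type and 24.0% in knockout, and Atp5g2 68.4% and 64.2%.

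Other gene groups of the mitochondrion had medians below 0 on the scaled log2 scale, some nearer to all genes tested than to the members. Of all genes tested, 50.1% were below 0 with TMM scaling. After the length trend was subtracted 51.2% were, with a median of −0.01. With library totals 29.3% of all genes tested were below 0, with a median of 0.24, and with FPKM 29.1%, with 0.23. The list values below are to be read beside these. With TMM scaling 0 genes of the lists that follow passed 2-fold, and single genes ranged up to 0.90 (Cpt1a, the entry step of fatty acid oxidation) and 0.79 (Lrpprc, which stabilises mitochondrial mRNA), both past 2-fold with library totals, at 1.14 and 1.03. Of 15 complex I assembly factors tested, 12 were below 0, with a median of −0.29, and 9 were after the length trend was subtracted. Of 20 complex IV assembly factors 15 were below 0, with a median of −0.19, and 11 after the subtraction. All 19 import genes tested were below 0, with a median of −0.28, and 10 after the subtraction. The tricarboxylic acid cycle had 16 of 17 below 0 and a median of −0.23. After the length trend was subtracted it had 15 of 17 and −0.17, beside −0.04 for the members. With library totals it was at 0.01, with 8 of 17 below 0. This was not particular to the cycle. Electron carrier and coenzyme Q synthesis genes had 11 of 11 below 0 and a median of −0.35, and 10 and −0.17 after the subtraction. The 3 factors of respiratory supercomplexes were all below 0 before and after, with medians of −0.40 and −0.21. Fatty acid oxidation had 12 of 15 below 0 and a median of −0.09, but 5 of 15 and a median of 0.06 after the subtraction, and 5 of 15 and 0.15 with library totals or FPKM. Genes of mitochondrial transcription and biogenesis had 7 of 12 below 0 and a median of −0.23. After the subtraction 7 of 12 were below 0 with a median of −0.10, and with library totals 6 of 12 and 0.01. At least 1.5-fold higher in knockout were 3 of the 12, beside 1562 of all 9498 genes tested. These 3 were Polrmt, Pprc1 and Tfb2m, with log2 ratios of 0.67, 0.65 and 0.59, or 0.48, 0.20 and 0.65 length-adjusted. At least 1.5-fold lower was 1, beside 607 of all genes. It was Tefm, with a log2 ratio of −0.60, or −0.34 length-adjusted. Cycs, the cytochrome c that links complexes III and IV, had 2617 and 2311 counts and a log2 ratio of −0.40, or −0.45 length-adjusted. Among other regulators of this list, named after their values were seen, Tfam had 191 and 184 counts and Nrf1 145 and 143. Their log2 ratios were −0.27 and −0.24. Length-adjusted, they were at −0.49 and −0.27. Their counting intervals, 0.671 to 1.02 and 0.667 to 1.07 as ratios, hold equality. Gabpa had 179 and 299 counts and a log2 ratio of 0.52, or 0.11 length-adjusted. Its gene overlaps Atp5j by 967 bases, and whether counting used strand to assign reads there is not stated.

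The ribosomal protein genes, also short and abundant, gave a comparison. Of 76 cytosolic ribosomal protein genes, 75 were below 0, with a median of −0.47 and a length-adjusted median of −0.09. Of 78 mitochondrial ribosomal protein genes, 73 were below 0, with −0.31 and −0.02. The oxidative phosphorylation genes lay between these on both scales, so a shift of this kind was not particular to them in these libraries.

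**Figure D5:**
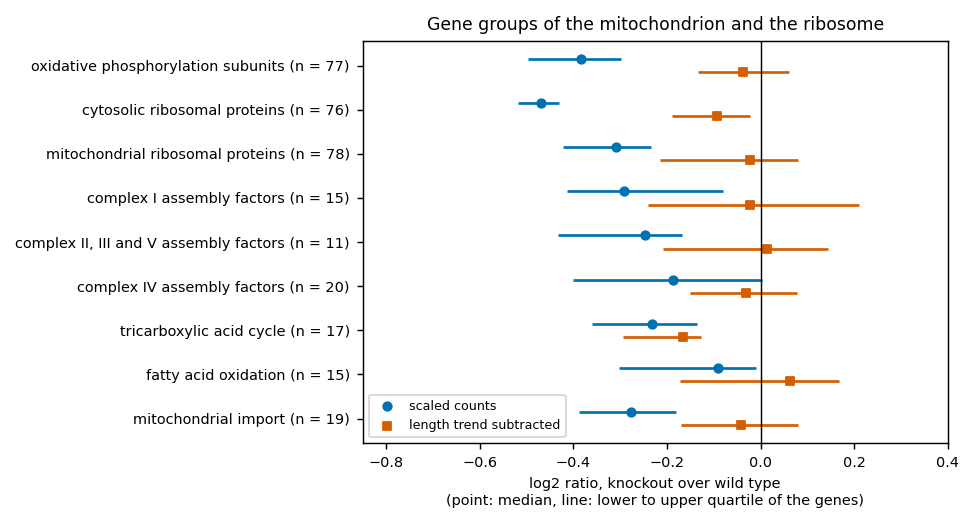
Median log2 ratio of knockout over wild type (horizontal axis; circles, scaled counts; squares, after the length trend was subtracted) with the quartile range of each gene group as a line. The members go from −0.38 to −0.04 and the cytosolic ribosomal protein genes from −0.47 to −0.09.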

How the data were processed

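Sequencing used a BGISEQ-500, per the labels' protocols, and the genotype label set the group of each sample. Per the file headers, the deposited files hold estimated counts, a transcript length in bases and FPKM per Entrez gene. The authors' estimated counts are not scaled between libraries, and their FPKM is scaled to length and library size. The submitters' processing notes name HISAT2, Bowtie2, RSEM and mm10, with no role or version. Whether strand was used in counting is not stated. RSEM assigns reads shared by similar copies by estimation, which makes 13 members with such copies uncertain, as are 15 members that overlap another listed gene. The copies were found by gene symbol and not by sequence, so copies under other names would be missed.

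Symbols, coordinates and promoter windows came from RefSeq tables of GRCm38.p6, which matched 15561 gene identifiers. Estimated counts were rounded and scaled with TMM factors (wild type 0.921, knockout 1.09) computed by edgeR 4.0.16 under R 4.3.3. Log2 ratios were taken after adding 1 scaled count, for genes with at least 50 counts in the higher library; 2-fold was the size rule. Intervals are 95% exact Clopper-Pearson intervals for counting error alone, because 1 library per group shows no variation between libraries. PCR copies cannot be recognised without molecular identifiers, so the intervals may be too narrow even for counting error. The length trend was a lowess fit of the log2 ratio on log2 length, span 0.3. A member's group, the other lists, the motifs and the alternatives were chosen with earlier results of these data known.

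Named by a rule are, per complex, the 2 members with the highest mean FPKM and those with the highest and lowest log2 ratio, all members of isoform sets, those below 50 counts, Lgmn, and up to 3 members past 2-fold of the other lists. Ndufv1, Ndufs7, Ndufb7, Ndufa8, Ndufb6, Uqcrc2, Cyc1, Atp5b, Atp5j, Ndufa4l2, Cycs, Tfam, Nrf1 and Gabpa were added after their values were seen, as were Sdha, Ndufa10, Ndufb2, Ndufs5, Csf1r, Adgre1, Cpt1a and Lrpprc. So were Polrmt, Pprc1, Tfb2m and Tefm. Alternatives used DESeq2 1.42.0 size factors, library totals, deposited FPKM plus 0.1, other pseudocounts, minimums, trend spans and thresholds. The procedure was tested on simulated data, in Python 3.11.15 with statsmodels 0.14.6.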

Additional observations from a re-analysis of the deposited data

How the results depend on the processing

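No paired analysis was possible because each group had 1 library. The members' median log2 ratio (−0.38) and the log2 ratio of their summed counts (−0.40) stayed below 0 in every alternative run. With the length trend subtracted they were near 0 and near the value of all genes tested. The values moved with library totals, to −0.14 and −0.16, and with deposited FPKM plus 0.1, to −0.14 and −0.18. Subtracting the length trend moved the median to −0.0383, the sum to −0.0387 and the number below 0 from 76 to 45 with a span of 0.3, and to −0.0249, −0.0303 and 41 with a span of 0.6. With the span of 0.3 all genes tested had a median of −0.0113, and 51.2% of them were below 0. The number past 2-fold, 0, was 5 at 1.5-fold, 52 at a log2 ratio of −0.322 or below, and 1 with Ndufa4l2 counted as a member, an alternative chosen after seeing the data. DESeq2 size factors, median centring, pseudocounts of 0.5 and 5, and minimums of 10, 200 or no counts kept these results. So did leaving out the 13 members with copies found by symbol, which leaves copies under other names unexamined. Single members changed sign in 13 cases with library totals, 13 with FPKM, 31 with the span of 0.3 and 35 with the span of 0.6. The members' share of 3.10% and 2.90% of FPKM was 1.48% and 1.32% of counts.

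Limits: counting error was small beside the differences for most members, with intervals reaching a median of 0.09 to either side on the log2 scale, but it says nothing of variation between mice. Genotype cannot be told apart from library preparation, culture or cell makeup with 1 library per group.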
